A study of Homo sapiens with 10 samples.

Results

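Kallikrein peptidases were described by the RNA of 10 genes, KLK2, KLK3, KLK4, KLK15, KLK5, KLK6, KLK7, KLK8, KLK10 and KLK11, among 19775 genes that had a probe set annotated with 1 symbol. They share a family name but were chosen with earlier results of these data known, and are not all the kallikreins on the array. Each was read by whichever of its probe sets had the highest mean signal. The arrays held 25 probe sets annotated with 1 symbol for the 10 genes. A probe set annotated with both KLK9 and KLK8 was left out.

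Total RNA of 2 human prostate cancer lines was hybridised to 10 Affymetrix expression arrays, 1 array per sample. LNCaP, from a lymph node metastasis, responds to androgen, whereas DU145, from a brain metastasis, grows without it. In each line 1 array came from EOS cells numbered 2 after ribavirin, a guanosine analogue whose dose and time were not given in the labels. Another 2 arrays came from EOS cells, which carried GFP and puromycin resistance driven by OCT4 and SOX2 enhancers and had been grown for weeks in puromycin, and 2 came from PGK cells, which carried the same genes driven by the ubiquitous PGK promoter. All groups thus carried a GFP and puromycin resistance vector, and ribavirin was given to EOS cells alone. Whether arrays 1 and 2 of a group stand for separate cultures is not stated in the labels, and the p-values below therefore rest on an array-to-array spread that may be technical.

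Kallikreins are secreted serine proteases made as inactive precursors and switched on by cleavage. Their genes lie side by side on chromosome 19. KLK3 encodes prostate-specific antigen, which liquefies semen by cutting semenogelins, and KLK2 encodes a close relative. Both are classical androgen-induced genes of the luminal cells of the prostate. KLK5, KLK7 and KLK8 are best known from skin, where they take part in shedding of the outer layer, and KLK6 and KLK8 from the nervous system.

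In RefSeq the cluster holds 16 kallikrein loci, counting the pseudogene KLKP1, in the order KLK1, KLK15, KLK3, KLK2, KLKP1, KLK4, KLK5, KLK6, KLK7, KLK8, KLK9, KLK10, KLK11, KLK12, KLK13 and KLK14. KLK15, KLK3, KLK2 and KLK4 are therefore next to each other, interrupted only by the pseudogene. The 250 bases before the start of these genes are shown because these were the 4 members above the array median in all LNCaP arrays. Sequences are from RefSeq on GRCh38.p14, 5′ to 3′ on the strand of the gene. Capitals mark the 15 bases closest to the androgen response element, searched as AGAACA, 3 free bases and TGTTCT, which reads the same on both strands.
KLK3, chr19:50854665-50854914, plus strand: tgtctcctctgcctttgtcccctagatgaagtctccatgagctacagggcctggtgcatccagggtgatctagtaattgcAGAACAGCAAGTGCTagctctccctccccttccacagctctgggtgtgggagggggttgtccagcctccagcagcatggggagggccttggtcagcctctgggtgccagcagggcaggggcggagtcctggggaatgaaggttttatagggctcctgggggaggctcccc
KLK2, chr19:50873189-50873438, plus strand: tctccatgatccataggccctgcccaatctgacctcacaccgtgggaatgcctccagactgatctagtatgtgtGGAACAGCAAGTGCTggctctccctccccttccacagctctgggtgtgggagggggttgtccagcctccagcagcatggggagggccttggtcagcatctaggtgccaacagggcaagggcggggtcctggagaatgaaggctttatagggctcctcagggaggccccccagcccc
KLK4, chr19:50911396-50911645, minus strand: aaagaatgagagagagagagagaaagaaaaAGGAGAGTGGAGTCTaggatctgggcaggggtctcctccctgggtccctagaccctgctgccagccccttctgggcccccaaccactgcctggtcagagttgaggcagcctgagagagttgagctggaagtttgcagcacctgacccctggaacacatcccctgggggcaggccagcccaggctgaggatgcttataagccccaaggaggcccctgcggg
KLK15, chr19:50833575-50833824, minus strand: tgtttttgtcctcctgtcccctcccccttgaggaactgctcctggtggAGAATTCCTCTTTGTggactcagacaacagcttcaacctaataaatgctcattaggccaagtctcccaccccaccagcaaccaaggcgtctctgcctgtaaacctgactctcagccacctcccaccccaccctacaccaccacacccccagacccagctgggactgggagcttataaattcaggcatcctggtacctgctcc

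The KLK3 stretch began 170 bases before the start and differed from the element at 2 of its 12 fixed bases. The KLK2 stretch began 176 bases before the start and differed at 3. Of 35114 RefSeq windows of 250 bases, 1.18% held a stretch with at most 2 such differences and 9.17% one with at most 3. The KLK3 and KLK2 stretches shared 14 of 15 bases, the difference being A1G, counted from the 5′ end with the KLK3 base first. The 2 promoters were identical at 82.0% of 250 bases in a global alignment. The other pairs of these 4 promoters, aligned in the same way, gave 46.4% to 54.4%. In KLK4 and KLK15 the closest stretch differed at 5 of the 12 fixed bases, and the same held for KLK5, KLK6 and KLK11, while KLK7 and KLK10 had 4. Only 1 window per gene was searched, although KLK4, KLK15, KLK10 and KLK11 had 2 and KLK7 had 3. For KLK10 and KLK11 the window searched was not at the outermost start of the gene. A stretch with at most 4 differences occurred in 42.0% of all windows. A TATA box written TATAAA or TTTATA lay 28 bases before the start of KLK3, 34 before KLK2 and 30 before KLK15, whereas 10.7% of windows held one anywhere. KLK8 was not compared. A match is a description of these letters and shows no binding.

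Levels below are log2(intensity + 16) after each array was scaled to a 2% trimmed mean of 500, so that the floor is 4. A probe set not above the median probe set of its array, which lay between 6.12 and 6.45, was taken as being at background there. Levels were compared for a gene between arrays and never between genes. The arrays numbered 1 had a deposited trimmed mean of 500 and those numbered 2 of 96.56 to 126.5. ACTB, whose 3′ over 5′ signal grows as RNA gets shorter, had a ratio of 1.236 to 1.511 in arrays 1 and of 3.204 to 3.993 in arrays 2. The same ratio for GAPDH differed less, at 0.9585 to 1.06 in arrays 1 and 1.092 to 1.216 in arrays 2. Of the luminal and the general epithelial markers 5 of 5 each were above the array median in all 5 LNCaP arrays. In DU145 this held for 2 of 5 luminal markers, KRT8 and KRT18, and for 1 of 5 general markers, EPCAM. HOXB13, FOLH1 and ACP3 were above it in 0 DU145 arrays. Of 4 basal markers, KRT14 and KRT15 were above the median in 0 arrays of either line, and KRT5 in 0 LNCaP arrays. The summed scaled intensity of the 4 was 633.5 to 1067 in LNCaP and 15390 to 18950 in DU145. For the luminal markers the sums overlapped, at 21110 to 28560 in LNCaP and 11740 to 21830 in DU145. For the general epithelial markers they were 40290 to 46280 and 338.2 to 1055. Such a sum may rest on 1 bright gene. Among the 4 basal markers SFN alone was above the median in all 5 arrays of either line. Of 7 fibroblast markers this held for COL1A1 in both lines, of 4 endothelial markers for PECAM1 in LNCaP, and of 4 leukocyte markers for none, with PTPRC and CD14 above it in 0 arrays of either line. The part of these markers in the differences between the lines was not tested.

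**Figure D1:**
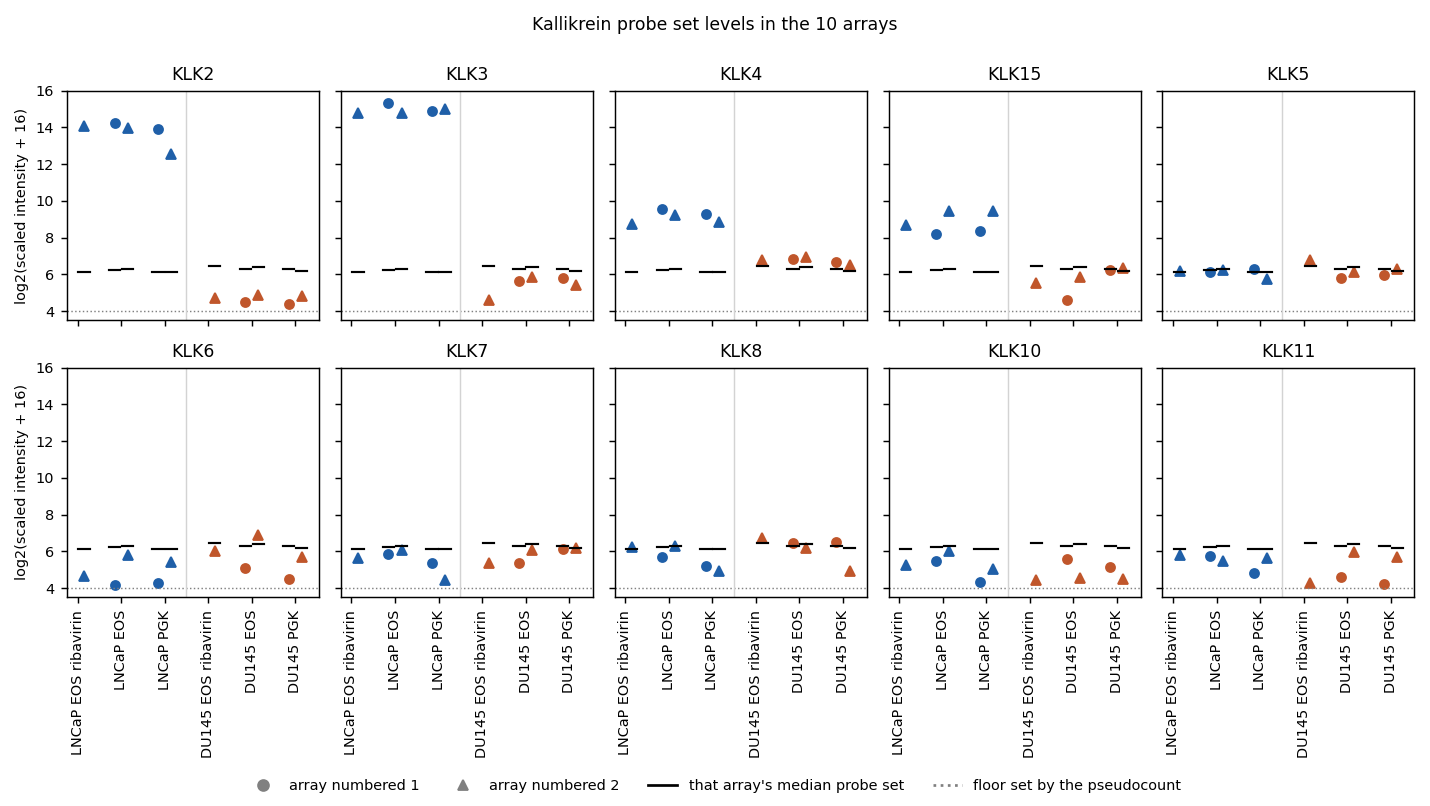
Level of the probe set used for each of the 10 kallikreins, as log2(scaled intensity + 16), in the 6 groups; each point is 1 array, circles are arrays numbered 1 and triangles arrays numbered 2, and short bars give the median of that array. KLK2, KLK3, KLK4 and KLK15 lie above the median in all 5 LNCaP arrays, KLK4 alone does so in all 5 DU145 arrays, and the other 6 genes lie around or below it.

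KLK2, KLK3, KLK4 and KLK15 were higher in LNCaP than in DU145, in PGK and in EOS cells alike, and no kallikrein was called lower. The probe sets used for the other 6 were at or near background in both lines. limma with Benjamini-Hochberg adjustment called 4 of the 6 members tested as higher in each comparison, where 15.2% of all 14330 genes tested were called higher in PGK cells and 15.2% in EOS cells (33% and 30.4% in either direction). KLK2 and KLK3 passed the filter on dim probe sets through LNCaP alone, and KLK15 with 1 DU145 array besides. This count, and the adjusted p-values of these genes between the lines given below, are therefore descriptions only. For KLK2 and KLK3 the DU145 side of the spread is that of background signal. In RNA of whole cultures, fewer cells with a transcript and less of it per cell cannot be told apart.

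KLK3, the gene of prostate-specific antigen, was at 14.81 in the LNCaP ribavirin array, at 15.33 and 14.80 in LNCaP EOS, and at 14.91 and 15.01 in LNCaP PGK cells. In DU145 it was at 4.62 after ribavirin, at 5.63 and 5.89 in EOS, and at 5.79 and 5.44 in PGK cells. All 5 LNCaP arrays were far above all 5 DU145 arrays, and every DU145 value of this probe set was below its array's median, unlike another KLK3 probe set described below. By the probe set used, KLK3 was at least 422-fold higher in LNCaP than in DU145 PGK cells when the DU145 background was put at the array median (fitted difference 9.34 ± 0.25 log2, SE, 2 arrays per group; limma adjusted p = 2.1e-07). In EOS cells the bound was at least 420-fold (9.31 ± 0.25; limma adjusted p = 2.18e-07). In LNCaP this probe set ranked 114 to 255 from the top of 54613, so it was read near the upper end of the array's range.

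KLK2, which encodes the protease most like prostate-specific antigen, was at 14.06 in the LNCaP ribavirin array, at 14.22 and 13.96 in LNCaP EOS, and at 13.94 and 12.55 in LNCaP PGK cells. In DU145 it was at 4.71 after ribavirin, at 4.52 and 4.86 in EOS, and at 4.42 and 4.84 in PGK cells. The LNCaP arrays lay between 13.94 and 14.22 with the exception of PGK 2, which was 1.39 below PGK 1, and all DU145 arrays were at background. KLK2 was at least 128-fold higher in LNCaP than in DU145 PGK cells by the probe set used (fitted difference 8.61 ± 0.42, limma adjusted p = 4.43e-06). In EOS cells it was at least 214-fold higher by the same probe set (9.41 ± 0.42, limma adjusted p = 2.64e-06). Its other probe sets gave smaller differences in PGK cells, of 7.22, 3.45 and -0.42, so these bounds do not hold for all of them.

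KLK4, a protease known for processing tooth enamel and also made in prostate, was at 8.75 in LNCaP after ribavirin, at 9.57 and 9.23 in LNCaP EOS, and at 9.29 and 8.84 in LNCaP PGK cells. In DU145 it was at 6.78 after ribavirin, at 6.86 and 6.94 in EOS, and at 6.70 and 6.53 in PGK cells. By the probe sets used, it was the only member above the array median in all 10 arrays, and the lines did not overlap. The difference was 5.49-fold in PGK cells (2.46 ± 0.29, limma adjusted p = 0.000377) and 5.64-fold in EOS cells (2.50 ± 0.29, limma adjusted p = 0.000374). On unscaled values neither call held (2.07 in PGK and 2.27 in EOS cells, limma adjusted p = 1 for both, the highest of 19 alternatives each).

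KLK15, which can activate the precursor of prostate-specific antigen in vitro, was at 8.67 in LNCaP after ribavirin, at 8.21 and 9.44 in LNCaP EOS, and at 8.34 and 9.47 in LNCaP PGK cells. In DU145 it was at 5.56 after ribavirin, at 4.61 and 5.86 in EOS, and at 6.25 and 6.36 in PGK cells, of which only PGK 2 exceeded its array's median. Every LNCaP array was above every DU145 array. KLK15 was 6.08-fold higher in LNCaP PGK cells (2.60 ± 0.58, limma adjusted p = 0.00954) and at least 5.57-fold higher in LNCaP EOS cells (3.59 ± 0.58, limma adjusted p = 0.00226). The call in PGK cells was lost without LNCaP PGK 2 (adjusted p = 0.0592), DU145 PGK 1 (0.0598) or DU145 PGK 2 (0.054), and when all 4 KLK15 probe sets were averaged (difference 0.89, adjusted p = 0.0634). Over all 19 alternatives its adjusted p ran from 0.00474 to 1 (on unscaled values), and 14 of 19 were under the threshold. In EOS cells the call was lost on unscaled values alone (adjusted p = 0.825, with 0.000908 the lowest of 19 alternatives), and the difference was 1.42 when all probe sets were averaged. The KLK15 probe set also followed the array number: arrays numbered 2 were above those numbered 1 by 1.23 in LNCaP EOS, 1.13 in LNCaP PGK, 1.25 in DU145 EOS and 0.11 in DU145 PGK cells. The part of deposited scale or RNA length in this was not tested.

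The probe sets of a gene gave differences between the lines of very unequal size. For KLK3 the differences in PGK cells were 9.34 and 10.06 by 2 probe sets and 1.39 by 231629_x_at, which read 9.96 to 10.51 in LNCaP and 8.33 to 9.21 in DU145. Of the KLK3 probe sets only 231629_x_at was above the median in DU145. Of the 4 KLK2 probe sets, 209854_s_at, 210339_s_at and 209855_s_at gave 8.61, 7.22 and 3.45, and 1555545_at, above the median in 1 array of 10, gave -0.42. The 5 KLK4 probe sets ranged from -0.01 to 3.28, with 231782_s_at at background in every array. With all probe sets of a gene averaged, the difference in PGK cells was 4.71 for KLK2, 6.93 for KLK3 and 1.77 for KLK4, each still called. Of the KLK15 probe sets the one used gave 2.60 and the other 3 gave 0.01 to 0.78. The suffixes _s_at and _x_at mark probe sets that can share probes with related sequences, and KLK2 and KLK3 are close copies, so signal may be split between them. Cross-hybridisation was not tested.

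**Figure D2:**
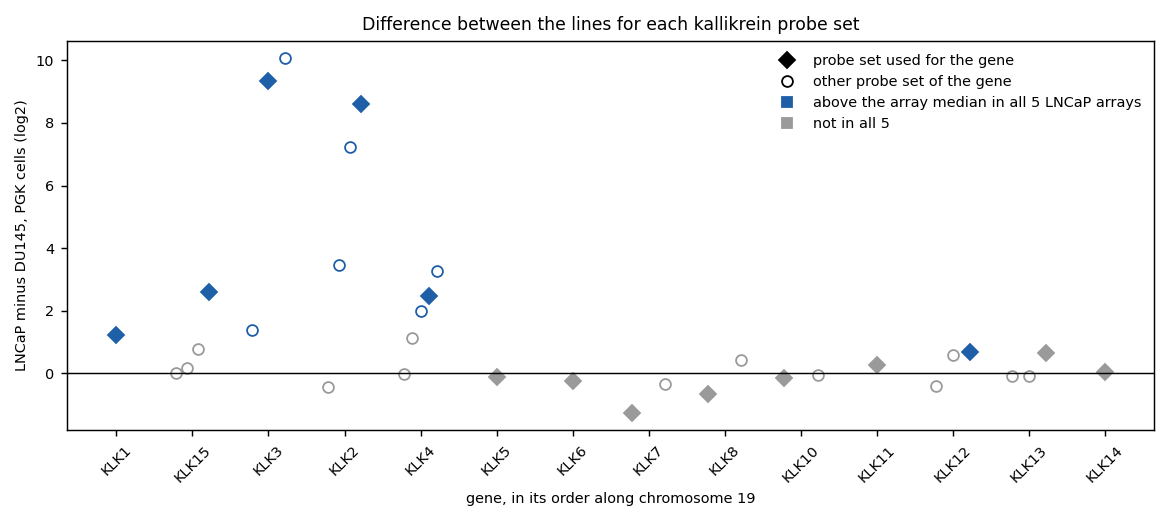
Difference LNCaP minus DU145 in PGK cells, in log2 units, for the kallikrein probe sets annotated with 1 symbol, with genes in their order along chromosome 19. Diamonds are the probe sets used for a gene, open circles the others, and blue marks those above the array median in all 5 LNCaP arrays. The large differences lie at KLK3 and KLK2, with smaller ones at KLK15 and KLK4, and the genes from KLK5 to KLK11 lie between -1.25 and 0.43.

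KLK5 and KLK8 were tested and not called, and KLK6, KLK7, KLK10 and KLK11 did not pass the filter. KLK5, a protease of the skin barrier, lay between 5.76 and 6.32 in LNCaP and between 5.82 and 6.78 in DU145, with a difference in PGK cells of -0.12 ± 0.42 (limma adjusted p = 0.863). KLK8, also called neuropsin, lay between 4.91 and 6.30 in LNCaP and between 4.91 and 6.72 in DU145, with a difference of -0.66 ± 0.59 (limma adjusted p = 0.438). The lines overlapped for both genes, and each was above the array median in 4 of 10 arrays.

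KLK6, a protease abundant in the central nervous system, exceeded the array median in 1 array, DU145 EOS 2 at 6.89, and ranged from 4.17 to 5.78 in LNCaP. Although at background, it was higher in the array numbered 2 of each group, by 1.62 in LNCaP EOS, 1.16 in LNCaP PGK, 1.80 in DU145 EOS and 1.21 in DU145 PGK cells. KLK7, which cuts corneodesmosomes in skin, ranged from 4.46 to 6.07 in LNCaP and from 5.36 to 6.19 in DU145. KLK10, first described as a gene of normal epithelial cells, ranged from 4.31 to 6.03 in LNCaP and from 4.42 to 5.56 in DU145. KLK11 ranged from 4.83 to 5.79 in LNCaP and from 4.22 to 5.99 in DU145. The probe sets used for KLK7, KLK10 and KLK11 were at background in every array, so no fold is given for them. A second KLK7 probe set, 205778_at, exceeded the median in 1 array, DU145 after ribavirin, at 6.57.

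EOS selection was compared with the PGK control in each line to ask whether the kallikreins follow the selected state. No member was called in either line. limma called 0 of the 6 members tested in LNCaP and 0 in DU145, against 0% of all 14330 genes in either line. At an unadjusted p under 0.05 there were 0 of the 6 members tested in both lines, against 597 genes in LNCaP and 227 in DU145. With the arrays paired by number it was 1 of these members in each line, against 1297 genes in LNCaP and 481 in DU145, and again 0 were called. KLK7, outside the filter and at background by the probe set used, had an unadjusted limma p of 0.0461 in LNCaP without the filter.

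KLK2 had the largest value among the 4 members above background in LNCaP, with a mean of 14.09 ± 0.18 in EOS and 13.24 ± 0.98 in PGK cells (SD, n = 2 each). EOS exceeded PGK by 0.85 ± 0.42 (SE; limma adjusted p = 0.999), with 0.29 between the arrays numbered 1 and 1.41 between those numbered 2. The other KLK2 probe sets above background gave 0.35 and 1.51 (210339_s_at) and 0.67 and 1.05 (209855_s_at), so all 3 were higher in EOS in both pairs. The value rested on LNCaP PGK 2: it was 0.16 without that array and 1.54 without PGK 1. KLK3 differed by 0.10 ± 0.25 (limma adjusted p = 0.999), with 0.42 in pair 1 and -0.21 in pair 2. Its 3 probe sets gave 0.28 to 0.42 in pair 1 and -0.18 to -0.21 in pair 2, so the pairs went opposite ways. KLK4 was at 0.33 ± 0.29 and KLK15 at -0.08 ± 0.58 (limma adjusted p = 0.999 for both).

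LNCaP PGK 2 was also the lowest of the 5 LNCaP arrays for other luminal genes. Of the 8 tested genes of the list of androgen and luminal regulators 4 were lowest in it, against 25.3% of all genes tested. TMPRSS2, an androgen-induced membrane protease, was at 11.79 in that array and at 12.67 to 13.40 in the other LNCaP arrays. HOXB13, a homeobox factor of the prostate, was at 11.30 there and at 11.75 to 11.96 in the others. GATA2 was at 11.35 against 11.57 to 11.95, and FKBP5, an androgen-induced chaperone, at 13.79 against 13.88 to 14.56. FOXA1, SPDEF, NCOA1 and NCOA2 were not lowest in it, and neither were KLK3, at 15.01, or KLK15, at 9.47. The part of this array in the KLK2 value beyond the values without it was not tested.

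**Figure D3:**
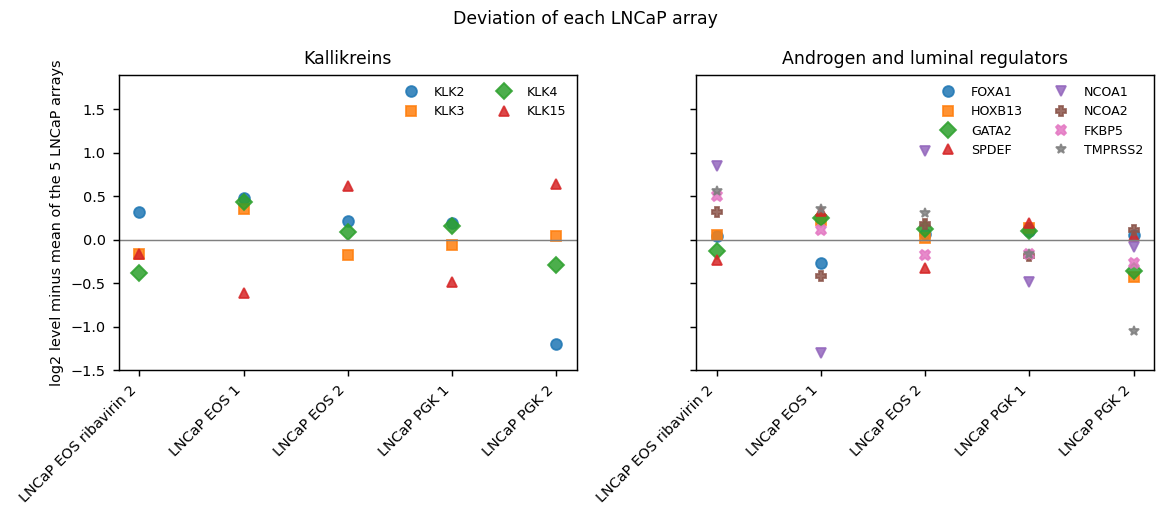
Level of each gene in each of the 5 LNCaP arrays minus the mean of those 5 arrays, in log2 units, for 4 kallikreins (left) and 8 androgen and luminal regulators (right). KLK2 and TMPRSS2 lie lowest in LNCaP PGK 2, while KLK3 lies close to its mean in that array and KLK15 lies above its mean in EOS 2 and PGK 2.

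In DU145 the probe sets used for KLK2 and KLK3 were at background in EOS and in PGK cells. The KLK3 probe set above background there, 231629_x_at, was at 8.33 and 8.92 in EOS and at 8.59 and 9.09 in PGK cells. KLK15, at background in EOS cells and above the array median in PGK 2 only, was at 5.23 ± 0.88 in EOS and 6.30 ± 0.08 in PGK cells (SD, n = 2 each; -1.07 ± 0.58, SE, limma adjusted p = 1). KLK4, above the array median in all DU145 arrays, averaged 6.90 ± 0.06 in EOS and 6.61 ± 0.12 in PGK cells (SD, n = 2 each). The difference was 0.29 ± 0.29 (SE; limma adjusted p = 1), with 0.17 and 0.42 in the pairs. The test of LNCaP against DU145 in the effect of EOS selection called 0 of 6 members, against 0% of 14330 genes. At an unadjusted p under 0.05 there were 0 of these 6 members and 464 genes. That difference of differences was 0.80 ± 0.59 for KLK2, -0.03 ± 0.35 for KLK3, 0.04 ± 0.41 for KLK4 and 0.99 ± 0.82 for KLK15 (SE; limma adjusted p = 1 for each).

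Ribavirin was compared with EOS cells of the same line, on 1 array each, whose spread was assumed to be that of the other groups. It shares the EOS arrays with the comparison above. limma called 0 of 6 members in LNCaP and 0 in DU145, against 0% of all 14330 genes in either line. At an unadjusted p under 0.05 there were 0 members and 290 genes in LNCaP, and 1 member and 250 genes in DU145. That member was KLK3, at 4.62 after ribavirin and at 5.76 ± 0.18 in DU145 EOS cells (SD, n = 2). All 3 values were below their array's median, so no fold is given. By 231629_x_at KLK3 was at 9.21 after ribavirin, against 8.33 and 8.92 in DU145 EOS cells, and so went the other way.

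In LNCaP, ribavirin minus the mean of both EOS arrays was -0.03 ± 0.51 for KLK2, -0.26 ± 0.30 for KLK3, -0.65 ± 0.35 for KLK4 and -0.16 ± 0.71 for KLK15 (SE; limma adjusted p = 0.999 for each). Against EOS 2 alone, the array of the same number, the differences were 0.10, 0.01, -0.47 and -0.78. KLK2 and KLK3 thus lay within 0.10 of EOS 2. KLK4 after ribavirin, at 8.75, was the lowest of the 5 LNCaP arrays, yet its probe sets went both ways against EOS 2, with -0.47 and -0.39 by 2 and 0.46 by the third. KLK15 after ribavirin lay between EOS 1 and EOS 2.

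**Figure D4:**
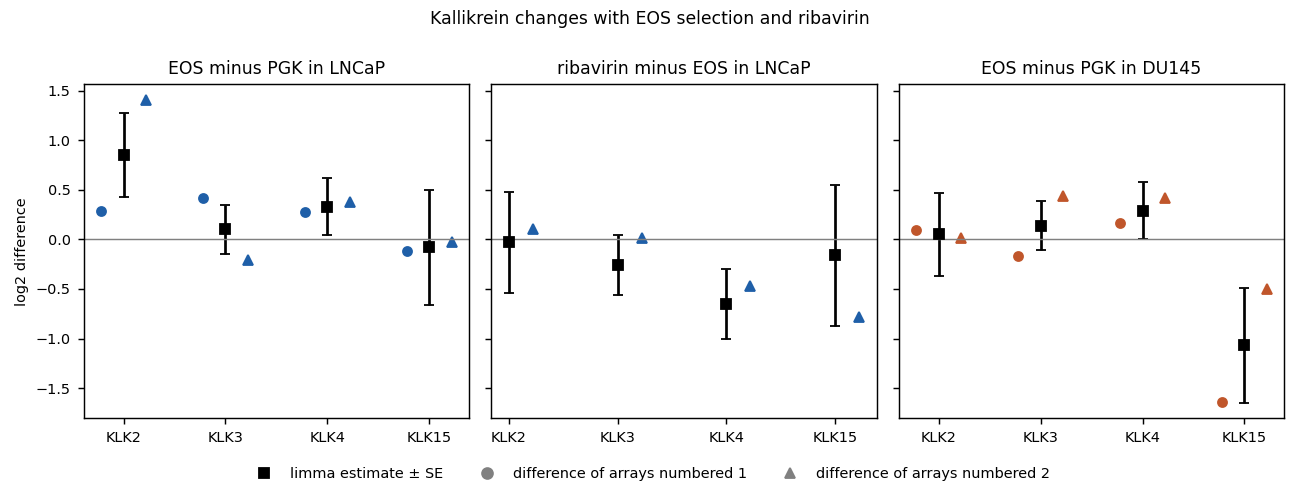
Log2 differences of KLK2, KLK3, KLK4 and KLK15 for EOS minus PGK in LNCaP (left), ribavirin minus EOS in LNCaP (middle) and EOS minus PGK in DU145 (right); squares with bars are limma estimates with their SE, circles the difference of the arrays numbered 1 and triangles that of the arrays numbered 2. The KLK2 pairs in LNCaP lie at 0.29 and 1.41, and no estimate passed the threshold.

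By group mean in LNCaP, KLK2 was at 14.06 after ribavirin, 14.09 in EOS and 13.24 in PGK cells, and so lowest in PGK cells, whose SD was 0.98. KLK3 was at 14.81 after ribavirin, 15.07 in EOS and 14.96 in PGK cells, and KLK4 at 8.75, 9.40 and 9.07 in the same order. By these means both were highest in EOS cells and lowest after ribavirin, which is 1 array. For KLK3 that array, at 14.81, did not lie below EOS 2, at 14.80. KLK15 was at 8.67 after ribavirin, 8.83 in EOS and 8.91 in PGK cells. The EOS and PGK groups and the ribavirin and EOS groups did not differ by the test for any of the 4 genes, and the step to DU145 was larger than any step within LNCaP.

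Once the mean of each line was taken out, KLK2, KLK3, KLK4 and KLK15 did not share one pattern over the 10 arrays. Pearson's r was -0.03 for KLK2 and KLK3, 0.46 for KLK2 and KLK4, 0.30 for KLK3 and KLK4, and -0.35, -0.03 and -0.50 for KLK15 with KLK2, KLK3 and KLK4. The arrays share number and line, and for KLK2 and KLK3, and mostly for KLK15, the DU145 deviations are those of background signal. Over the 5 LNCaP arrays alone r was 0.04 for KLK2 and KLK3, 0.53 for KLK2 and KLK4, and 0.62 for KLK3 and KLK4. It was -0.66, -0.47 and -0.52 for KLK15 with KLK2, KLK3 and KLK4. With the line means left in, r over the 10 arrays mostly restates the step between the lines, and was 0.99 for KLK2 and KLK3. The genes most like KLK3 in this way were GRHL2 (r = 0.998), TMEM125 (0.997) and APOO (0.997). Those most like KLK2 were PDHX (0.998), TTC19 (0.998) and DYNLRB2 (0.997). KLK4 was most like ZBTB37 (0.997), ZNF32 and PRAC1 (0.992 each), and KLK15 most like LYNX1 (0.986), PGAP2 (0.984) and KCNK1 (0.982). With the line means taken out the leading genes were SEPSECS (0.972) for KLK2, EEFSEC (0.944) for KLK3, NUDT14 (0.954) for KLK4 and MELTF (0.934) for KLK15. For KLK5 and KLK8, both near background, they were PPP3CC (0.954) and LOC105373418 (0.963). These are the highest of 14330 values each.

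Among the other kallikreins, 5 of 7 listed had a probe set with 1 symbol and 3 were tested. KLK1, tissue kallikrein, which releases kinins and is the neighbour of KLK15, was higher in LNCaP PGK cells (7.42 and 7.53, against 6.03 and 6.44 in DU145 PGK cells; 1.24 ± 0.34, limma adjusted p = 0.0229). In EOS cells its difference was 0.83 ± 0.34 (limma adjusted p = 0.1). KLK12 and KLK13 were not called, and KLK14 and the plasma kallikrein gene KLKB1 were at background in every array.

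Regulators, activators, inhibitors and substrates of kallikreins were also compared between the lines. In PGK cells 33% of all genes tested were called, 15.2% higher and 17.9% lower in LNCaP, with a median over all genes of -0.04. Of the 8 tested androgen and luminal regulators 6 were higher, 0 lower and 2 not called, with a median of 2.58. With the DU145 background put at the array median, TMPRSS2 was at least 63.5-fold higher (limma adjusted p = 6.48e-06), HOXB13 at least 40.5-fold (6.48e-06) and SPDEF, an epithelial ETS factor, at least 27-fold (2.34e-05). GATA2, above background in both lines, was higher by 2.68 ± 0.24 (8.68e-05). FOXA1, which opens chromatin for hormone receptors, was higher by 2.47 ± 0.23 (limma adjusted p = 0.000109). Of 14 genes listed 9 had a probe set with 1 symbol, of which 1 did not pass the filter, and the other 5 were not analysed here.

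Of 7 tested proteases that can activate kallikreins 4 were higher, 1 lower and 2 not called, with a median of 3.58. Besides TMPRSS2, counted in both lists, ST14, which encodes matriptase, was at least 26.7-fold higher (limma adjusted p = 6.37e-06) and the prostasin gene PRSS8 at least 6.61-fold (0.000101), both at background in DU145 PGK cells. The hepsin gene HPN was higher by 3.94 ± 0.49 (limma adjusted p = 0.000508). TMPRSS4 and ENTPD1 were not called, and ENTPD1, though listed here, encodes an ectonucleotidase and no protease. PLAU, the urokinase gene, was at background in LNCaP PGK cells and at least 30.4-fold lower there (limma adjusted p = 0.000137). Of 9 tested inhibitors 2 were higher, 1 lower and 6 not called, with a median of -0.42. The inhibitors were thus called about as often as all genes, of which 33% were called in either direction. The Kunitz inhibitors SPINT1 and SPINT2 were higher by 2.88 ± 0.34 (limma adjusted p = 0.000364) and 1.33 ± 0.25 (0.00458). TIMP1, the 1 listed inhibitor called lower, inhibits metalloproteases, whereas kallikreins are serine proteases. It was also at background in LNCaP PGK cells and at least 48.1-fold lower there (limma adjusted p = 4e-05). SERPINA3, which binds prostate-specific antigen in blood, was at background in every array, from 4.50 to 6.09.

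Of 19 tested substrates and receptors 6 were higher, 6 lower and 7 not called in LNCaP, with a median of -0.32. CDH1, encoding E-cadherin, was higher by 7.58 ± 0.30 (limma adjusted p = 1.56e-06), and fibronectin, FN1, by 4.45 ± 0.42 (0.000121). IGFBP3, whose product binds insulin-like growth factors and is cut by prostate-specific antigen, was lower (-7.06 ± 0.76, limma adjusted p = 0.000235), and so was the urokinase receptor gene PLAUR (-3.66 ± 0.34, adjusted p = 0.00011). Many of these genes passed the filter through 1 line, so the counts are descriptions. In the EOS and the ribavirin comparisons 0 genes of the 5 lists were called, against 0% of all genes.

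**Figure D5:**
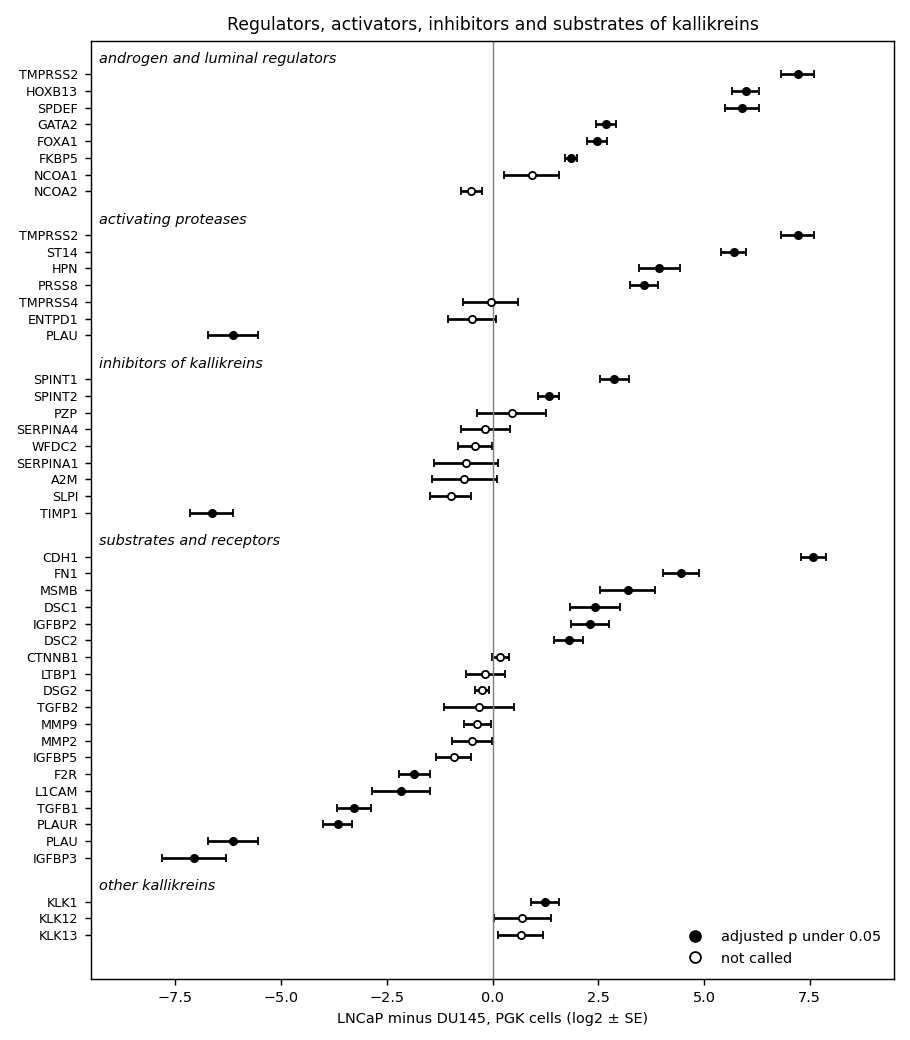
Difference LNCaP minus DU145 in PGK cells, in log2 units with the SE, for the tested genes of 5 lists; filled points passed an adjusted p of 0.05 and open points did not. Fitted values of genes at background in 1 line, such as TMPRSS2 and TIMP1, depend on the floor. The 6 called androgen and luminal regulators all lie to the right of 0, and the called substrates and receptors lie 6 on either side.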

How the data were processed

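RNA of 10 samples was measured on Affymetrix arrays. Linear intensities per probe set, as deposited, were the starting point. MAS5 and affy are named in the submitters' processing notes, without version, background method or scaling target. All arrays were brought to a 2% trimmed mean of 500. The log2 scale has a pseudocount of 16, so changes of dim genes are understated. Of 54675 probe sets 62 were controls. Of the rest, those above the array median in at least 2 arrays were kept, and the brightest with 1 symbol stood for a gene, giving 14330 genes. limma 3.58.1 in R 4.3.3 was fitted to the means of the 6 groups with 4 residual degrees of freedom, eBayes with a trend on intensity, and a Benjamini-Hochberg threshold of 0.05. Members outside the filter were fitted without it. Each SE comes from the spread shared by all groups, and the number of arrays limits the precision. An exact two-sided permutation test of 2 arrays against 2 cannot go below p = 0.333.

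Across genes, deviations from the group means of same-numbered EOS and PGK arrays correlated at 0.123 (DU145) and 0.483 (LNCaP). The deposited scale also differed by number, so a second fit blocked on each line's array number (replicate block). Alternatives changed the pseudocount, scaling, normalization, filter, probe set choice and trend, or left out each array. The fit was tested on simulated data. Members, lists and tests were chosen with earlier results of these data known. All 10 members and, of each list, up to 4 called genes of largest change plus genes fixed by name were reported.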

Additional observations from a re-analysis of the deposited data

How the results depend on the processing

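Of 774 values of single members computed under an alternative with a test, 8 moved to the other side of the threshold and none of these changed direction. All 8 were line differences of KLK4 and KLK15 that were no longer called. On the values as deposited, not scaled, 2 members were called between the lines in PGK cells and 2 in EOS cells, KLK2 and KLK3, against 57 and 36 of all genes. In that setting each group mixes both deposited scales, which widens the spread. KLK4 was then at 2.07 and 2.27 and KLK15 at 2.15 and 3.12. On unscaled values the median of all genes was -0.18 for EOS against PGK in DU145 (scaled, -0.02), -0.18 between the lines in PGK cells (scaled, -0.04) and 0.22 for the difference between the lines in the EOS effect (scaled, 0.06). With 1 array left out, the genes called between the lines numbered 2497 to 5061 in PGK cells and 2677 to 4559 in EOS cells, with the lowest counts without a DU145 array (2595 without DU145 PGK 1 and 2497 without PGK 2; 2735 without DU145 EOS 1 and 2677 without EOS 2). For EOS against PGK in LNCaP they numbered 0 to 4, with 3 without PGK 1 and 4 without EOS 1, and 0 of them members. The replicate block gave 5163 and 4919 genes between the lines and 0 in every other comparison, and changed the call of no member. A pseudocount of 1 gave 10.01 for KLK2, so the size of this difference depends on the floor. Saturation of KLK3 could not be judged from these values.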
